A study of Mus musculus with 31 samples.

Results

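In parental NIH-3T3 cells, 37 protein-coding genes on chromosomes 1 to 19 were open at 3 or more separate promoters. A transcription start site (TSS) was taken as open where it lay under a peak of the ATAC-seq peak list, and a gene was included when at least 3 separate peaks each overlapped the TSS of one of its own protein-coding transcripts in the mouse GENCODE annotation (build mm10). These 37 genes held 114 TSS peaks, 37 first ones and 77 downstream ones, where "first" is the most 5′ open TSS along the direction of transcription. They were 0.368% of the 10057 genes with a TSS peak, among 20722 protein-coding genes. The genes were chosen by the presence of peaks in this same list, so their number of open promoters is a description and carries no test.

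Many mammalian genes begin transcription at more than 1 place. Each alternative promoter splices its own first exon to exons that the transcripts share, and the resulting mRNAs can differ in their leader, in the start codon and thus in the N terminus of the protein, or only in the tissue in which they are made. Promoters fall broadly into CpG islands, which are GC-rich, keep their CpG dinucleotides unmethylated and are often open in most cell types, and CpG-poor promoters, which are more often tied to a cell type or a signal. In fibroblasts, regulatory DNA of the CpG-poor kind often carries the sequence bound by AP-1, the dimers of Fos and Jun proteins that respond to serum and growth factors.

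The values come from 1 library of the parental line NIH-3T3, a line of mouse embryo fibroblasts without a transcription factor transgene, for which the labels list no doxycycline. ATAC-seq inserts sequencing adapters with the transposase Tn5 into DNA that nucleosomes leave free, here in 50000 cells with 0.5 µM Tn5 and 12 cycles of PCR according to the labels. The study asked how transcription factors bind mitotic chromosomes and open chromatin, and its series holds 30 more samples, which were not analysed here, and with 1 library there is no replicate error. A fold enrichment (fold) was deposited for each peak, the fragment count at the peak summit over the count expected locally. The exact 95% Poisson interval given with a fold covers the counting error of its summit fragments only, of which the median was 49 at first and 45 at downstream TSS peaks. Of 10 fibroblast marker genes, 9 had an open TSS, Thy1 being without one. Among 12 markers of other cell types, Krt14 and Cdh5 had a TSS peak, and the 3 blood, 2 pluripotency and 1 liver markers had none.

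The promoters of 1 gene could have very different sequences. The 4 genes shown, with a wide range of CpG content, are given by the summit base and 50 bp to either side at their most and least CpG-rich TSS peak, in mm10, 5′ to 3′ on the strand of the gene, with each CpG in capitals.
Atf7ip TSS peak 1 (chr6:136518716-136518816, plus strand): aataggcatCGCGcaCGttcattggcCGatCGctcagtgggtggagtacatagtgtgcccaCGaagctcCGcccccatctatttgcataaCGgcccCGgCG
Atf7ip TSS peak 3 (chr6:136551062-136551162, plus strand): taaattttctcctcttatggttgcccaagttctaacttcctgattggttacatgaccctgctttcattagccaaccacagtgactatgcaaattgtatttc
Trim2 TSS peak 2 (chr3:84259646-84259746, minus strand): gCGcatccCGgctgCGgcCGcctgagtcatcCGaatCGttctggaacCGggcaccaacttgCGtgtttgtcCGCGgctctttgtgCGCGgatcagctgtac
Trim2 TSS peak 1 (chr3:84270755-84270855, minus strand): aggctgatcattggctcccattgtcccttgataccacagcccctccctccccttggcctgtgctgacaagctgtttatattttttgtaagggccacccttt
Oxr1 TSS peak 2 (chr15:41788828-41788928, plus strand): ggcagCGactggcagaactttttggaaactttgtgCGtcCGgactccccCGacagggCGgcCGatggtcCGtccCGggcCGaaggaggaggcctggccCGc
Oxr1 TSS peak 3 (chr15:41830848-41830948, plus strand): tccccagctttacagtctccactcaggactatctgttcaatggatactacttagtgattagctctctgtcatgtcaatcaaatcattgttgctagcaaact
Runx2 TSS peak 2 (chr17:44735529-44735629, minus strand): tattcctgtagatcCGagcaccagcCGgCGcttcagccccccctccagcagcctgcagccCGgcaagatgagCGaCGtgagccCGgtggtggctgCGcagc
Runx2 TSS peak 1 (chr17:44814976-44815076, minus strand): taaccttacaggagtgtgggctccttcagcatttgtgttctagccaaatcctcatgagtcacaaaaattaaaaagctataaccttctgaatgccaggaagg
Atf7ip encodes a partner of a histone methyltransferase, Trim2 a ubiquitin ligase, Oxr1 a protein that protects from oxidative damage, and Runx2 the transcription factor that specifies osteoblasts. In these windows the CpG-rich TSS peaks held 10 CpGs in Atf7ip, 12 in Trim2, 10 in Oxr1 and 8 in Runx2, and the poor ones held 0. The annotated transcripts at Runx2 TSS peak 2 have no leader and an unfinished 5′ end. Whether that CpG-rich sequence is a promoter is therefore uncertain.

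A second feature was present at 2 promoters of some genes. In 7 of the 37 genes the AP-1 sequence TGACTCA, or TGAGTCA when read on the other strand, lay within 150 bp of the summit at 2 TSS peaks, and 31 bp with the site nearest each summit are shown with the site in capitals, again in mm10 and on the strand of the gene. TSS peaks are numbered along the gene from the first. Of all coding TSS peaks, 4.98% held the sequence in this window. That share counts single peaks, of which 81.6% were CpG-rich, and no matching share of genes was computed.
Dusp14 TSS peak 1 (chr11:84069167-84069197, minus strand): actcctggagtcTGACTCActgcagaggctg
Dusp14 TSS peak 3 (chr11:84067144-84067174, minus strand): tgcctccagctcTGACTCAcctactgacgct
Plec TSS peak 2 (chr15:76206387-76206417, minus strand): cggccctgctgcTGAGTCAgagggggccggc
Plec TSS peak 4 (chr15:76196313-76196343, minus strand): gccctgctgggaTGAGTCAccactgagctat
Trim2 TSS peak 2 (chr3:84259706-84259736, minus strand): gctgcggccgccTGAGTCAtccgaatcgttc
Trim2 TSS peak 3 (chr3:84220936-84220966, minus strand): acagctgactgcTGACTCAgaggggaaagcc
Cdk14 TSS peak 1 (chr5:5420337-5420367, minus strand): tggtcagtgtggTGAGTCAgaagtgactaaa
Cdk14 TSS peak 3 (chr5:5265494-5265524, minus strand): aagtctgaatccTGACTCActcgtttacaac
Fam214b TSS peak 2 (chr4:43040425-43040455, minus strand): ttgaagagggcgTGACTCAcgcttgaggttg
Fam214b TSS peak 3 (chr4:43039244-43039274, minus strand): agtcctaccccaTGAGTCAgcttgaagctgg
Gatad2a TSS peak 2 (chr8:69974587-69974617, minus strand): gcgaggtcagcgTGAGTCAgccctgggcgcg
Gatad2a TSS peak 3 (chr8:69936552-69936582, minus strand): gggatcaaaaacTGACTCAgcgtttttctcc
Capg TSS peak 1 (chr6:72544376-72544406, plus strand): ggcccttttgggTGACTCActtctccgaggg
Capg TSS peak 3 (chr6:72552770-72552800, plus strand): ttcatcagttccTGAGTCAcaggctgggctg
Plectin (Plec) links intermediate filaments to other parts of the cytoskeleton, Capg caps actin filaments, Cdk14 is a kinase of the cyclin Y pathway, Gatad2a is a subunit of the NuRD chromatin remodelling complex and Dusp14 is a phosphatase of MAP kinase signalling. The first TSS peak was 1 of the 2 in Dusp14, Cdk14 and Capg, and in the other 4 genes both were downstream.

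Genes with several open promoters were few in this peak list, where a TSS without a called peak counts as not open. Of the 20722 genes, 10665 had no TSS peak, 9501 had 1, 519 had 2, 34 had 3 and 3 had 4. The 3 with 4 TSS peaks were Tcf4, an E-protein transcription factor, Sbno2, a transcriptional co-regulator, and Plec. Most annotated alternatives lay under no peak. Of 2480 genes whose annotated protein-coding TSSs fell into at least 3 groups 500 bp or more apart, 885 were open at none, 1269 at 1, 290 at 2 and 36, or 1.45%, at 3 or more TSS peaks. The 37 genes were long, with a median of 105 kb against 48.1 kb for genes with 2 TSS peaks and 22.9 kb for those with 1. They had a median of 5 such TSS groups, against 3 and 1, and 11 of them had a further annotated TSS upstream of the first open one that lay under no peak.

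The weakest of the 114 peaks was the second of Zfp516, a zinc finger gene, with a −log10 q of 2.13 and 23 fragments. At least 1 TSS peak had a −log10 q below 5 in 9 of the 37 genes, and without such peaks 30 genes remained, Tcf4 and Plec with 3 in place of 4. Just outside the threshold, the genes with 2 TSS peaks had a median fold of 7.90, above the 6.46 of the 37 genes and below the 10.2 of genes with 1, so the median fold went down as the number of open promoters went up.

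The open TSSs of a gene lay 2.15 kb to 642 kb apart from first to last, with a median of 37.8 kb. Ctbp2, a transcriptional co-repressor, had the shortest span, and Pde4d, a phosphodiesterase that degrades cAMP, the longest. Between neighbouring TSS peaks the median gap was 10.8 kb, and 10 of 77 gaps were shorter than 500 bp. When peaks under 500 bp apart were joined, 28 genes remained, 27 of them among the 37.

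**Figure D1:**
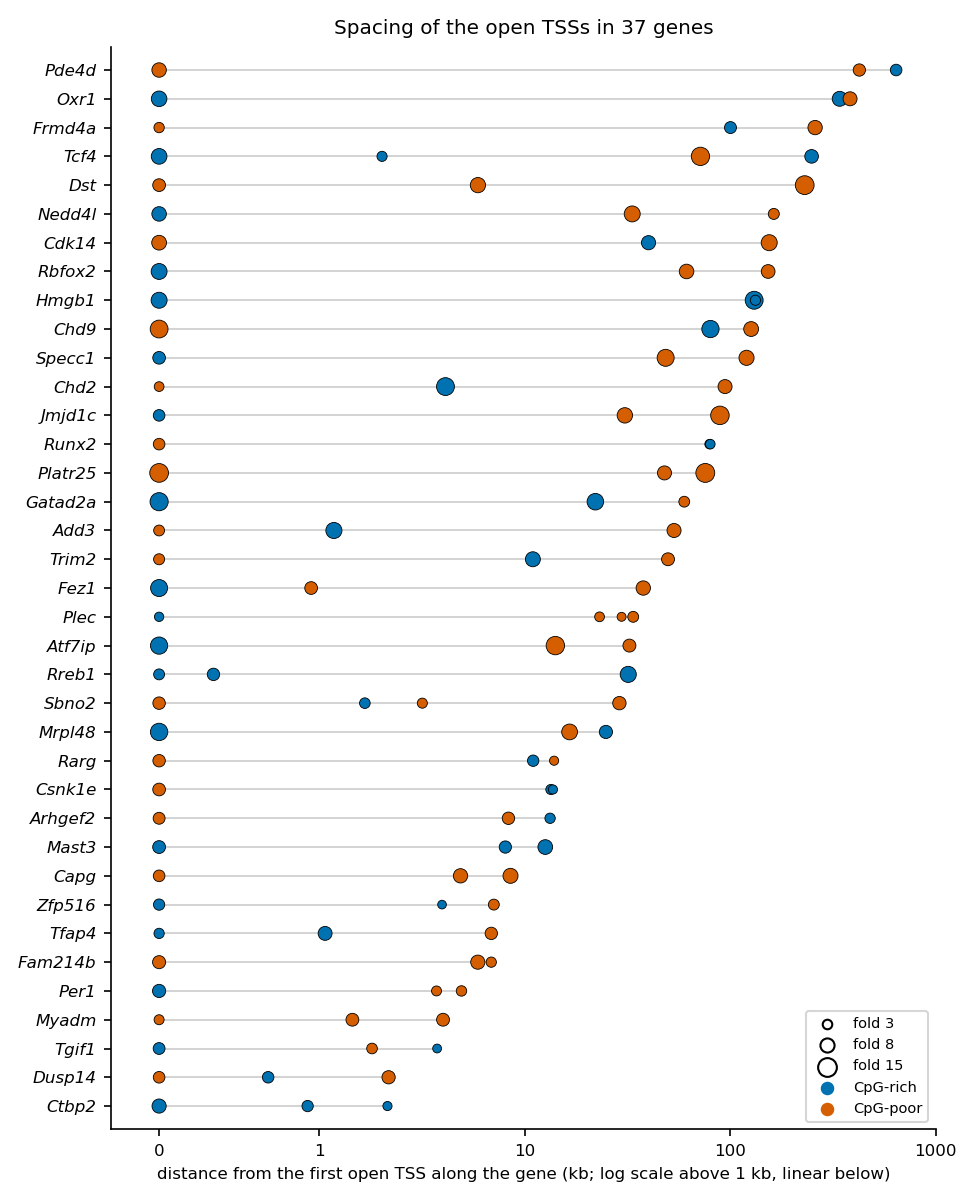
Distance of each open TSS from the first open TSS of its gene, in kb along the gene (log scale above 1 kb), for the 37 genes ordered by span. Each circle is 1 TSS peak, its area rising with the fold and its colour giving the CpG class; spans run from 2.15 kb in Ctbp2 to 642 kb in Pde4d.

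The folds of first and downstream promoters covered much the same range. The median was 6.23 at the 37 first TSS peaks (quartiles 4.99 and 9.98) and 6.83 at the 77 downstream ones (quartiles 4.21 and 9.15). Within genes, the first TSS peak was above the median of its downstream ones in 22 of 37, with a median log2 ratio of 0.23 and a range from −1.74 to 1.13, and 15 genes went the other way. In the 519 genes with 2 TSS peaks the median log2 ratio was 0.13. All coding TSS peaks together had a median fold of 9.84, above both classes of the 37 genes.

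**Figure D2:**
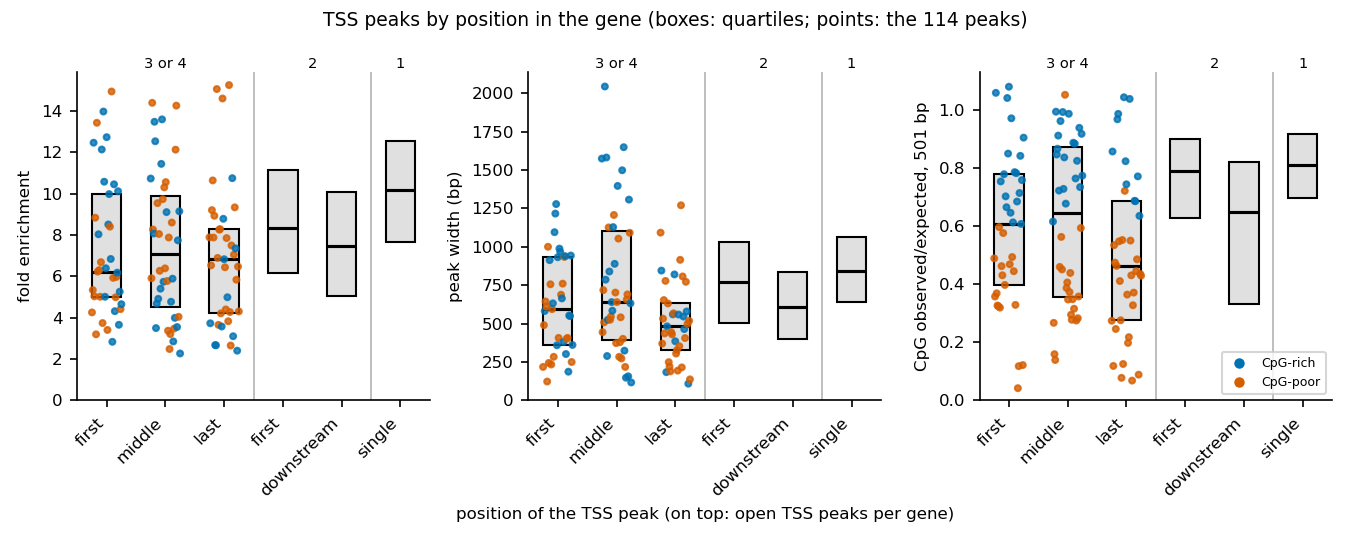
Fold, peak width in bp and CpG observed/expected of the TSS peaks by their position, for the 37 genes with 3 or 4 open TSSs (each point 1 of the 114 peaks) and for genes with 2 and 1. Boxes span the quartiles with the median as a line; the medians for genes with 1 TSS peak, 10.2 for the fold and 845 bp for the width, lie above those of the first, middle and last peaks of the 37 genes.

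The strongest promoter was the first in 14 genes (37.8%, exact binomial 95% interval 22.5 to 55.2%), a middle one in 11 and the last in 12. In genes with only 2 TSS peaks the first was the higher in 58.2%, a share that is not on the same footing, since the first is there set against 1 downstream peak and here against 2 or 3. The strongest and the weakest promoter of a gene had intervals that did not overlap in 27 genes. Over the 37 genes their folds differed by a median factor of 2.05, from 1.27 in Oxr1 to 4.22 in Chd2. Against its highest downstream TSS peak, the first was higher with intervals apart in 1 gene, lower in 11 and overlapping in 25, where the downstream value is the highest of several. In the 2-peak genes the intervals were apart with the first higher in 22.0% and with the downstream one higher in 14.3%.

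**Figure D3:**
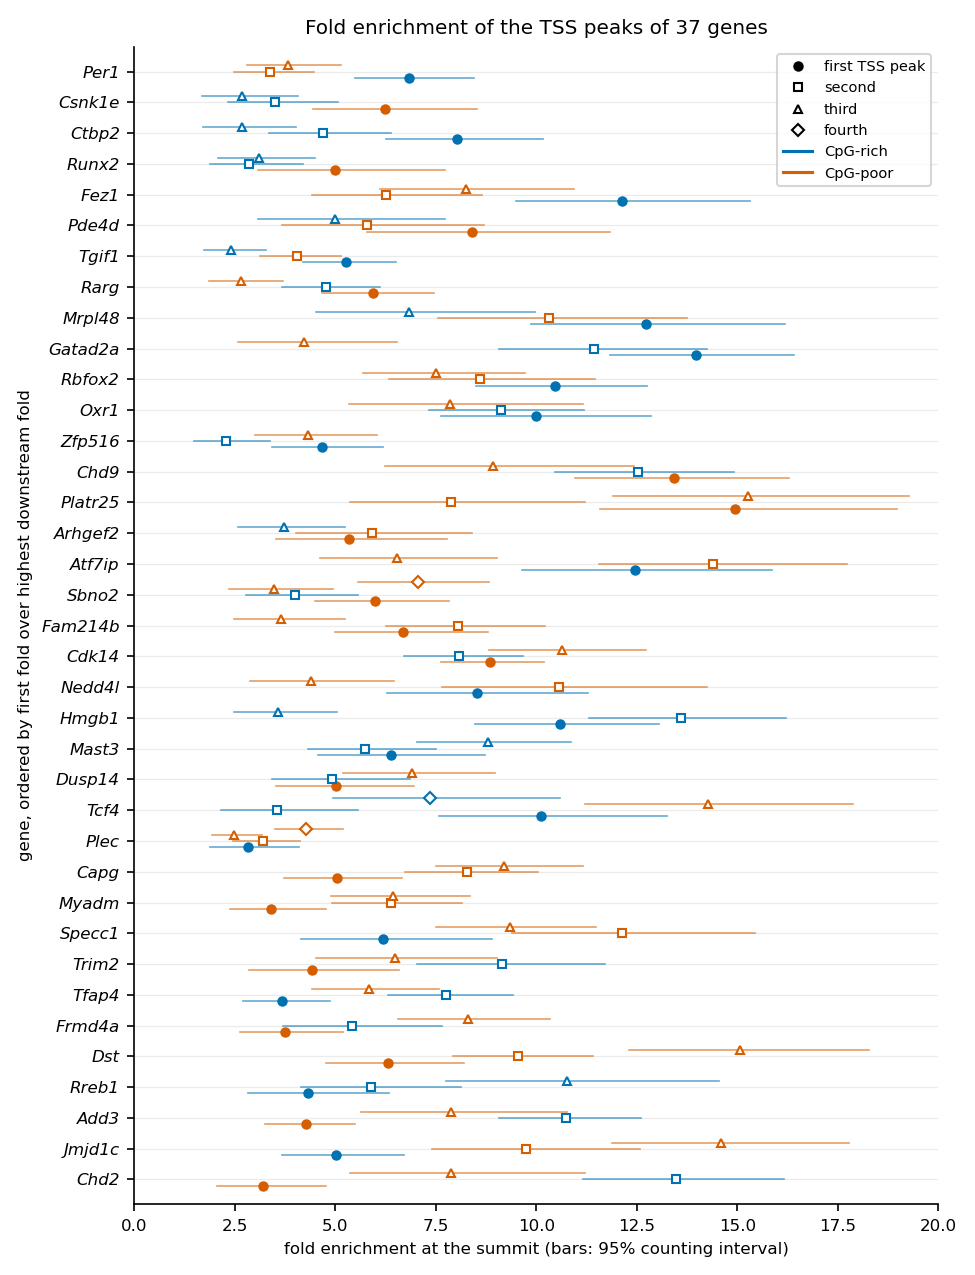
Fold at the summit of each of the 114 TSS peaks, with exact 95% Poisson counting intervals, for the 37 genes ordered by the ratio of the first fold to the highest downstream fold. Filled circles are first TSS peaks and colour gives the CpG class; at the top, Per1 has its first peak at 6.84 and the others at 3.37 and 3.83, and at the bottom Chd2 has its first at 3.20 and its second at 13.5.

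Per1, a core repressor of the circadian clock, was the gene whose first promoter stood above the others beyond counting. Its 3 TSS peaks had folds of 6.84 (5.48 to 8.44), 3.37 (2.49 to 4.47) and 3.83 (2.80 to 5.13) within 4.93 kb, and the first was the CpG-rich one. Csnk1e, a casein kinase that acts on the PER proteins, had 6.23 (4.43 to 8.52) at its first TSS peak and 3.50 and 2.68 at the other 2, of which the upper interval bounds, 5.07 and 4.06, left 1 overlap. Ctbp2 went from 8.04 (6.25 to 10.2) through 4.69 (3.35 to 6.39) to 2.67 (1.70 to 4.01) over 2.15 kb, all 3 being CpG-rich. Fez1, an adaptor of kinesin motors, had 12.1 (9.48 to 15.3) at a CpG-rich first TSS peak, 6.27 at the second and 8.26 at the third, where the annotated 5′ end is unfinished. Its first and highest downstream intervals overlapped, as did those of Runx2 at 4.99, 2.85 and 3.11. The closest TSS peaks were 126 bp apart in Csnk1e, 199 bp in Ctbp2, 227 bp in Fez1 and 395 bp in Runx2. None of these genes kept 3 TSS peaks when peaks under 500 bp apart were joined, whereas Per1 did.

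At the other end, a downstream promoter was the stronger one. Chd2, a chromatin remodelling ATPase, had a fold of 3.20 (2.06 to 4.77) at its first TSS peak, which was 123 bp wide, and 13.5 (11.1 to 16.2) at a CpG-rich one 4.12 kb downstream. Jmjd1c, of the family of jumonji histone demethylases, had 5.01 (3.66 to 6.71), 9.73 and 14.6 (11.9 to 17.8) along the gene. The second and the third of these had fewer than 50% G and C and the first, the CpG-rich one, was the widest at 1278 bp. Rreb1, a zinc finger factor of the Ras pathway, had 4.32, 5.89 and 10.7, and Add3, an adducin of the membrane skeleton, 4.26, 10.7 and 7.89. In Rreb1 and Add3 the first and second TSS peaks were 132 and 139 bp apart, so that the first was a small peak beside a broad one of 1648 and 1574 bp. The further genes with a downstream TSS peak above the first beyond counting were Trim2, Specc1, Capg, Frmd4a, Tfap4, Myadm and Dst. In Trim2 (4.42, 9.15 and 6.47) and in Specc1, a protein of the actin and microtubule skeleton (6.18, 12.1 and 9.34), the middle one was highest. The last was highest in Capg (5.03, 8.27 and 9.20) and in Frmd4a, a scaffold of cell polarity (3.74, 5.40 and 8.29). It was also highest in Myadm, a membrane protein (3.41, 6.39 and 6.44). These ranks among downstream promoters are by fold alone, and the second and the third of Capg and of Myadm overlapped. The third TSS of Chd2 rests on a transcript with an unfinished 5′ end.

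In 2 genes of cytoskeletal linkers, Dst and Plec, the last promoter had the highest fold. Dst encodes dystonin, a spectraplakin that connects actin, microtubules and intermediate filaments through isoforms made from separate promoters. Its fold was 6.31 (4.77 to 8.19) at chr1:34005259-34006014, 9.54 (7.91 to 11.4) at chr1:34011040-34012165 and 15.1 (12.3 to 18.3) at chr1:34236232-34236862, 231 kb from the first. The values are in the order of the gene, the last stands apart from the other 2 by its interval, and none was CpG-rich. Plec, known for a series of alternative first exons, had 2.83, 3.21, 2.49 and 4.27 at its 4 TSS peaks within 33.8 kb, all low, with overlapping intervals between the first and each other one. The first, at chr15:76229303-76229682, was CpG-rich with an observed/expected ratio of 0.785, and the last, at chr15:76195656-76196925, had a ratio of 0.0682 and was 1270 bp wide. The expected count beside Plec was high, 8.52 fragments at the first and 17.7 to 24.7 at the others, against a median of 6.89 over the 114 peaks.

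Transcription factor genes with known alternative promoters gave further patterns. Tcf4 had folds of 10.1 (7.58 to 13.2), 3.55 (2.15 to 5.57), 14.3 (11.2 to 17.9) and 7.35 (4.94 to 10.6) along 249 kb of chromosome 18. The third was the highest, the single CpG-poor one of the 4, and held an AP-1 sequence. Runx2 is transcribed in bone from a distal and a proximal promoter. Its first TSS peak, at chr17:44814679-44815080, had a fold of 4.99 from 18 fragments, a CpG ratio of 0.0421 and an AP-1 sequence, and the second and the third, CpG-rich, lay 79.4 and 80.1 kb downstream. The annotated transcripts at these 2 downstream peaks have no leader and an unfinished 5′ end, so their TSS is uncertain. Rarg, the retinoic acid receptor γ, had 5.93, 4.77 and 2.66, and Tgif1, a homeobox repressor of TGF-β signalling, 5.26, 4.04 and 2.41, both highest at the first. In Tfap4, a bHLH factor, the second was highest at 7.74 (6.31 to 9.41) against 3.66 (2.70 to 4.85) at the first.

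Pde4d makes long and short enzyme forms from promoters spread over a gene of 1299 kb. Its 3 open TSS peaks had folds of 8.40 (5.79 to 11.8), 5.78 (3.68 to 8.69) and 4.99 (3.06 to 7.73) on 31, 21 and 18 fragments, with intervals that overlap. The third was CpG-rich, with a ratio of 1.04. The transcripts at the first 2 have no leader, that at the first has an unfinished 5′ end, and 3 annotated transcripts start further upstream under no peak.

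Among chromatin genes, Chd9 had 13.4 (10.96 to 16.3), 12.5 (10.5 to 14.9) and 8.93 (6.23 to 12.4), Gatad2a 14.0 (11.8 to 16.4), 11.4 (9.07 to 14.2) and 4.21 (2.59 to 6.53), and Atf7ip 12.5 (9.64 to 15.9), 14.4 (11.5 to 17.7) and 6.53 (4.61 to 9.02). The first 2 TSS peaks had overlapping intervals in each of these 3 genes. In Hmgb1, which encodes an abundant DNA-bending protein, all 3 were CpG-rich with 10.6, 13.6 and 3.57, the last 2 lying at the gene's principal starts 131 and 133 kb from the first. Mrpl48, a protein of the mitochondrial ribosome, had 12.7, 10.3 and 6.83, and its first TSS peak was shared with another gene. Hmgb1, and Jmjd1c and Ctbp2 described above, also had 1 TSS peak shared with another gene. Without shared peaks 33 genes remained, and Mrpl48, Hmgb1, Jmjd1c and Ctbp2 were not among them. Sbno2 had 5.98, 3.99, 3.47 and 7.05, with overlapping intervals for the first and last.

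Platr25 was highest by summed fold among genes with 3 TSS peaks, at 14.9 (11.6 to 18.98), 7.88 (5.36 to 11.2) and 15.3 (11.9 to 19.3). Its first and the third TSS peaks matched each other over 760 bp at 93.7% identity, the longest match between any of the 114 peaks, 75.8 kb apart. Only uniquely mapped reads were kept, so both folds rest on reads that could be told apart between these near-identical stretches. Other pairs matched over at most 249 bp.

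In 10 genes no promoter stood apart from another, the strongest and the weakest having overlapping intervals. These were Chd9, Mrpl48, Pde4d and Runx2, given above, and Oxr1, Rbfox2, Cdk14, Mast3, Dusp14 and Arhgef2. Oxr1 had 9.98, 9.11 and 7.85 across 383 kb, Rbfox2, a splicing regulator, 10.5, 8.60 and 7.50, and Cdk14 8.84, 8.07 and 10.6. Mast3, a kinase, had 6.39, 5.74 and 8.78, Dusp14 had 5.01, 4.92 and 6.89, and Arhgef2, an activator of RhoA, 5.34, 5.91 and 3.73. In other genes the first and the highest downstream TSS peak overlapped, while at least 1 downstream promoter was weaker beyond counting than the strongest. Among them were Nedd4l, a ubiquitin ligase of ion channels (8.51, 10.6 and 4.40), Fam214b (6.69, 8.05 and 3.65) and Zfp516 (4.65, 2.27 and 4.31).

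Middle promoters were most often the widest. The median width was 594 bp at first, 640 bp at middle and 482 bp at last TSS peaks, against 812 bp over all coding TSS peaks. The widest TSS peak was the first in 14 genes, a middle one in 18 and the last in 5, and in 2-peak genes the first was the wider in 62.4%. The median log2 ratio of first over downstream width was 0.10, from −2.61 to 1.51. Cdk14 had the widest, 2043 bp at its second promoter against 611 and 653 bp. The widest TSS peak was also the one with most CpG in 20 genes, and the strongest was the one with most CpG in 12. No share expected for unrelated measures is given beside these counts, so they are a description and carry no test.

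Most of these genes combined both kinds of promoter. A promoter was called CpG-rich where the sequence within 250 bp of its summit had a CpG observed/expected ratio of at least 0.6 and at least 50% G and C. By this rule 28 of the 37 genes held both CpG-rich and CpG-poor TSS peaks, 4 were CpG-rich throughout (Hmgb1, Rreb1, Mast3 and Ctbp2) and 5 CpG-poor throughout (Platr25, Dst, Capg, Fam214b and Myadm). CpG-rich were 19 of the 37 first TSS peaks (51.4%, interval 34.4 to 68.1%) and 31 of the 77 downstream ones (40.3%, interval 29.2 to 52.1%), against 81.6% of all 9582 coding TSS peaks. The 2-peak genes lay between, with 76.5% of first and 53.9% of downstream TSS peaks. The median CpG ratio was 0.607 at first, 0.646 at middle and 0.463 at last TSS peaks, and the first held most CpG in 14 genes, a middle one in 16 and the last in 7. In 2-peak genes the first had more CpG in 66.9%.

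The range of the CpG ratio within a gene had a median of 0.550 and was widest in Atf7ip, whose 3 TSS peaks had 1.06, 0.159 and 0.119. Trim2 had 0.122, 0.917 and 0.435, Oxr1 0.970, 0.986 and 0.218, and Runx2 0.0421, 0.763 and 0.685. Thus the promoters printed above stand at both ends of the scale, and the CpG-poor one was upstream in Trim2 and Runx2 and downstream in Atf7ip and Oxr1. The order of the CpG classes by fold was opposite at the 2 positions, a difference that was not tested. Among first TSS peaks the median fold was 8.04 for the CpG-rich and 5.63 for the CpG-poor, and among downstream ones it was 5.40 for the 31 CpG-rich and 7.67 for the 46 CpG-poor. Over all coding TSS peaks the medians were 10.1 and 8.02. The expected count was higher at the CpG-rich downstream TSS peaks, with a median of 7.58 against 6.12 fragments, and its part in the difference was not tested.

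The AP-1 sequence was found at 5 of 37 first TSS peaks (13.5%, interval 4.54 to 28.8%) and 16 of 77 downstream ones (20.8%, interval 12.4 to 31.5%), within 150 bp of the summit on either strand, against 4.98% of all coding TSS peaks. It went with CpG-poor promoters, at 18 of 64 (28.1%, interval 17.6 to 40.8%) against 3 of 50 CpG-rich ones (6.00%). The same classes over all coding TSS peaks had 15.5% and 2.60%. Last TSS peaks held it in 10 of 37 genes. In all, 14 genes had it at a TSS peak: the 7 printed above with 2 each, and Tcf4, Specc1, Fez1, Chd2, Nedd4l, Zfp516 and Runx2 with 1. The other 319 peaks inside these 37 genes, which lie at none of the gene's protein-coding TSSs, held it in 43.3%, were CpG-rich in 2.19% and had a median width of 296 bp.

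**Figure D4:**
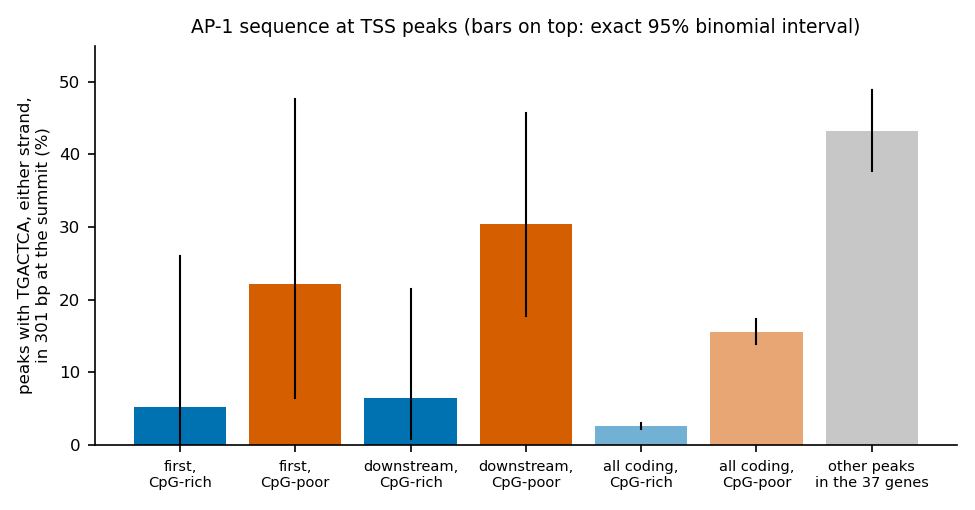
Share of peaks, in percent, with the AP-1 sequence within 150 bp of the summit, by position and CpG class in the 37 genes, over all coding TSS peaks and in other peaks inside the 37 genes, with exact 95% binomial intervals. The CpG-poor downstream TSS peaks stand at 30.4% and the CpG-rich ones at 6.45%, and the other peaks in the genes at 43.3%.

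Several promoter sequences were less frequent at these TSS peaks than in the background. Of the 114, 43.9% were CpG-rich, against 81.6% of all coding TSS peaks. The GC box GGGCGG was at 19 first and 41 downstream TSS peaks, 52.6% of the 114 against 71.4% of all. The CCAAT box was at 10 and 23 (28.9% against 39.1%), the ETS sequence CCGGAAG at 3 and 6 (7.89% against 20.6%), and the NRF1 half-site GCGCATG at 0 and 3 (2.63% against 7.36%). Of the others, the E-box CACGTG was at 5 and 2 (background 10.8%), the cAMP response element TGACGTCA at 1 and 1 (3.77%), TATAAA at 3 and 3 (4.06%) and the TEAD sequence CATTCC at 2 and 9 (9.88%). The intervals of the NRF1 half-site (up to 7.50%) and of the E-box (up to 12.2%) over the 114 include the background. By position, the E-box interval included it at first TSS peaks (4.54 to 28.8%) and lay below it at downstream ones (0.316 to 9.07%). The intervals of the cAMP response element, TATAAA and the TEAD sequence include the background at first and at downstream TSS peaks. Within CpG classes the GC box was nearer to the background, at 72.0% of the CpG-rich TSS peaks against 78.2% of all CpG-rich coding ones, and at 37.5% of the CpG-poor against 41.4%. Of the 114, the CCAAT box was at 26.0% of the CpG-rich and 31.25% of the CpG-poor. The part of the CpG class in the other shares was not tested. A match of letters is not a bound site.

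Of the 37 genes, 33 had the TSS of a principal isoform, as APPRIS ranks it, under 1 of their TSS peaks, against 92.3% of genes with 2 TSS peaks and 95.2% of those with 1. Such a TSS lay at 16 first and 26 downstream TSS peaks. Going along the gene, the principal TSS first appeared at the first TSS peak in 16 genes, the second in 12 and the third in 5, and lay under none in 4 (Specc1, Pde4d, Frmd4a and Csnk1e). A transcript of the highest support level began at 61 of the 114 (53.5%), against 87.1% of all coding TSS peaks, most of which belong to genes with 1. In the genes with 2 the share was 65.5% at the first and 63.6% at the downstream TSS peak. If each TSS had to have such a transcript, 5 genes remained, namely Chd9, Per1, Plec, Rarg and Trim2. Another 5 of the 114 were known only from transcripts whose 5′ end was not found, so their annotated start may not be a TSS.

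Start codons were compared between promoters. Of 71 downstream TSS peaks whose transcripts could be compared with those of the first, 34 had a transcript with the same start codon and 37 had none (52.1%, interval 39.9 to 64.1%), in 22 genes. In genes with 2 TSS peaks the downstream one shared no start codon with the first in 47.2%, which that interval includes. All 3 downstream promoters of Plec and both of Dst, Cdk14, Trim2, Rbfox2 and Rarg shared no start codon with the first. Those of Per1, Capg, Dusp14, Myadm and Add3 shared that of the first.

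Lists of genes chosen for their known alternative promoters held 5 of the 37. Of 29 transcription factor genes with textbook alternative promoters, 9 had no TSS peak, 14 had 1, 4 had 2 and 2 had 3 or more (Tcf4 and Runx2). Among 19 genes of the cytoskeleton and adhesion, the numbers were 1, 9, 7 and 2 (Plec and Dst), and among 24 signalling genes 4, 12, 7 and 1 (Pde4d). The annotation sets a limit here, since 16 of these genes have fewer than 3 groups of annotated TSSs. Of the 56 with 3 or more groups, 8 had no TSS peak, 29 had 1, 14 had 2 and 5 had 3 or more. That is 33.9% with 2 or more, against 13.1% of all 2480 genes with as many groups, and 8.93% with 3 or more, against 1.45%. The lists were written with earlier results of these data known, so these shares are a description and carry no test. Genes with 2 included Runx1, Crem, Macf1, Tpm1, Ank2, Abl1, Bdnf and Gnas.

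**Figure D5:**
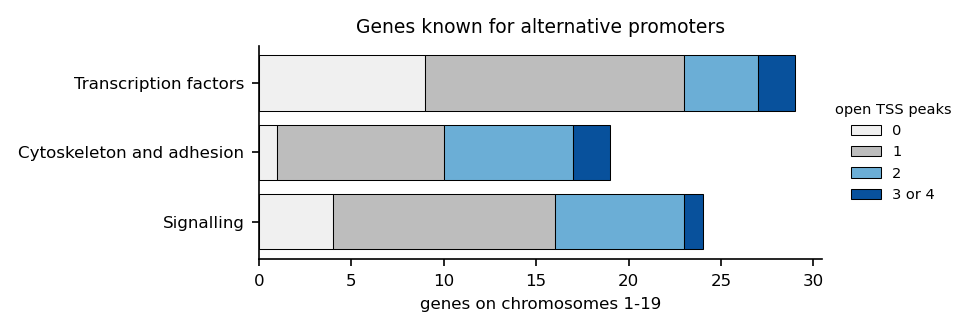
Number of genes on chromosomes 1 to 19 with 0, 1, 2, and 3 or 4 open TSS peaks, in 3 lists of genes known for alternative promoters. The dark segments are the 2, 2 and 1 genes that belong to the 37.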

How the data were processed

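For alignment the authors used STAR and mm10, retaining unique alignments to the autosomes and both sex chromosomes. Duplicates were dropped by Picard, and MACS2 then called peaks from fragment pairs. The submitters' processing notes list STAR 2.5.3a and MACS2 2.1.1.20160309. No shift for the Tn5 cut is described. The deposited fold enrichment is a ratio of summit to local expected pileup, 1 being added to both. The deposited −log10 p and −log10 q are from a Poisson test at the summit, and the deposited score is a rounded −log10 q that was not used beyond checks. The list holds 63456 peaks with a median of 29 summit fragments; the read total is not part of it.

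TSSs of protein-coding transcripts came from GENCODE M21, sequence from GRCm38.p6, the same build as mm10. Any overlap of 1 bp joined a peak and a TSS. Summit fragments were solved from fold and −log10 p and were within 0.02 of a whole number for 99.997% of peaks. The interval of a fold is the exact Poisson interval of these fragments put through the same ratio, and shares have exact Clopper-Pearson intervals. Peaks are not replicates, so no p-value was computed. The scripts were tested on simulated data. Peak sequences were matched to each other with BLAST 2.17.0 (blastn, e-value limit 1e-10).

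The genes, motifs and gene lists were chosen with earlier results of these data known. Named were the 10 genes with most TSS peaks (ties by summed fold), the 5 highest and 5 lowest ratios of first to highest downstream fold, the 5 widest CpG ranges and the listed alternative-promoter genes; other members were named after their values were seen. Software was pysam 0.24.0, SciPy 1.17.1, matplotlib 3.10.9, pandas 2.3.3 and NumPy 2.4.6 under Python 3.11.15.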

Additional observations from a re-analysis of the deposited data

How the results depend on the processing

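The set of genes depended on what counted as an open TSS, and no gene was kept under every planned rule of membership. With a fold of at least 5, 14 genes remained, the median CpG difference of first minus downstream was 0.22 and 25% of downstream TSS peaks were CpG-rich. With the summit required within 250 bp of the TSS there were 45 genes, 24 of them among the 37, and the median log2 ratios of first over downstream were 0.49 for the fold and 0.67 for the width. With basic transcripts only there were 13 genes, with 25.9% of downstream TSS peaks CpG-rich and 0% of first ones with an AP-1 sequence. With support level 1 only, 5 genes remained, in which the first TSS peak was the highest in 60.0%, 27.3% of downstream TSS peaks were CpG-rich, and the AP-1 sequence was at 0% of first and 36.4% of downstream ones. A stricter CpG rule (0.75 and 55% G and C) gave 29.7% of first and 27.3% of downstream TSS peaks. The cause was not tested. The other 68 values stayed within the counting or order-statistic interval of the reported value, or, for the number of genes, within 1.5 times of it. Within those intervals the sign changed 4 times. The CpG difference was −0.05 over whole peaks and −0.07 with support level 1, and the log2 width ratio was −0.05 with a −log10 q of at least 5 and −0.24 with support level 1, so these medians have no stable direction. The median log2 fold ratio stayed above 0, down to 0.04 with a −log10 q of at least 5. Its order-statistic interval under the main rule, −0.18 to 0.46, nevertheless included 0. With the summit required within 250 bp of the TSS the interval was 0.19 to 0.70. The 68 include the setting added after seeing the data, without transcripts whose 5′ end was not found (33 genes). No paired analysis was possible because a single library holds no pairs, and none could be left out. Depth limits the comparison of single promoters: at the median of 46.5 summit fragments, most first and highest downstream folds had overlapping intervals.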

Other observations

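On the X chromosome, which the rule left out, 2 of 948 protein-coding genes had 3 or more open TSS peaks, 10 had 2 and 306 had 1. Ikbkg, the regulatory subunit of the kinase that activates NF-κB, had 4, with folds of 16.5, 4.30, 6.44 and 3.02 along the gene, the first being the highest. Sh3kbp1, an adaptor of receptor endocytosis, had 3, with 12.5, 8.87 and 11.7.

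The bodies of the 37 genes also held many open regions at none of the gene's protein-coding TSSs, 319 in all with a median fold of 5.36. Cdk14 had 43 of them, Pde4d 35, Frmd4a 32 and Dst 30, whereas Mrpl48, Platr25, Capg, Mast3, Rarg and Csnk1e had 0. Per 100 kb of gene the median was 4.82, against 3.15 in genes with 2 TSS peaks and 0 in those with 1. As given above, genes with fewer TSS peaks were shorter, and the part of gene length in these rates was not tested.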
